A study of Homo sapiens with 10 samples.

Results

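Clustered replication histone genes encode the histones that package newly copied DNA. They were measured in the dye-effluxing side population, the non-side population and the unsorted culture of human gastric cancer cells. The members are the genes whose symbol begins with H1-, H2AC, H2BC, H3C or H4C followed by a number, without pseudogenes, and that have a probe set assigned to that symbol alone. Where a gene had several such probe sets, the one of highest mean intensity was taken. This gave 46 of the 19775 genes with a probe set of their own: 9 of the H1 family, 8 of H2A, 14 of H2B, 7 of H3 and 8 of H4. The rule goes by symbol and used no measured difference. In RefSeq 40 members lie on chromosome 6 and 2 on chromosome 1, inside histone gene clusters. The other 4 lie outside them: the linker histone genes H1-10 and H1-8 on chromosome 3, H1-7 on chromosome 12, and the H2B gene H2BC12L on chromosome 21.

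A side population is the minority of cells that pumps out the DNA-binding Hoechst dye and so appears dim in flow cytometry. Side population and non-side population cells were each hybridised to 4 arrays, lettered a to d, and unsorted cells to 2, lettered a and b, which makes 10 in all. The titles name the same replicate groups, SPa to SPd, for both sorted populations, and UCPa and UCPb for unsorted cells. All origin labels name the established gastric carcinoma lines AGS and MKN 45. The source label names AGS on 8 arrays and no line on the other 2, which are replicates a and b of the side population. No genetic change or drug distinguished the groups, and sorted cells had been stained with the dye. The labels do not say that replicates were separate cultures, so a p-value here measures a spread among samples that may be technical.

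The core histones H2A, H2B, H3 and H4 form the protein spool of the nucleosome, and the linker histone H1 binds the DNA between spools. Replication histone genes are transcribed in S phase under the coactivator NPAT. Their mRNAs usually end in a stem-loop bound by SLBP rather than in a poly(A) tail, and they are degraded when DNA synthesis stops. Some of these genes, H2BC12, H2AC6, H2BC5, H2BC21 and H1-2 among them, can also give polyadenylated mRNA in cells that have stopped dividing or are differentiating. A labelling reaction primed on poly(A) reads mainly the polyadenylated form; the primer used for these arrays is not stated in the labels. The coding sequences of 1 family are nearly alike, so a probe can bind the mRNA of several genes.

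Promoter windows show what the members share beyond their names. RefSeq windows of 300 bases (250 before to 50 after the annotated start, GRCh38.p14) were found for 43 of the 46 members, and H2BC12L, H3C11 and H4C1 had none. The following motifs were searched on both strands. The octamer ATGCAAAT, the binding motif of the POU factor OCT1 in H2B promoters, was in 6 of 8 H2A and 10 of 13 H2B windows, but in 0 of 9 H1, 0 of 6 H3 and 0 of 7 H4 windows. It was in 1.8% of 27305 windows of all genes. CCAAT, the motif of the factor NF-Y, was in 37 of the 43 windows, with H4 at 2 of 7, and in 35.7% of all windows. The TATA box letters TATAAA were in 28 of 43 and in 12.0% of all windows. In some windows, such as those of H2BC6 and H2AC8, the only match lay far upstream of the start. A match is a description of letters, not a bound site. The 4 windows printed here belong to the 3 tested genes that read higher on all 8 sorted arrays than on both unsorted arrays, and to H1-10, which lies outside the clusters. They run from 5′ to 3′ on the gene's strand, and capitals mark the matches to the motifs on either strand (overlapping TATA matches run together in H2BC12). H2BC12 is at chr6:27146809-27147108 on the minus strand, H2AC6 at chr6:26123922-26124221 on the plus strand, H2AC17 at chr6:27893136-27893435 on the minus strand and H1-10 at chr3:129316237-129316536 on the minus strand.
H2BC12: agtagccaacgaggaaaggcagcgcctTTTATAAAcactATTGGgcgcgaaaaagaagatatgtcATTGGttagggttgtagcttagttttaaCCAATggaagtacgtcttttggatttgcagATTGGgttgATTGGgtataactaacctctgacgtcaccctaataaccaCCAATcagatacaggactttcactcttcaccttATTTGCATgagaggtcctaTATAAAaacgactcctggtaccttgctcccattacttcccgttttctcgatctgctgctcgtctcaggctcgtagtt
H2AC6: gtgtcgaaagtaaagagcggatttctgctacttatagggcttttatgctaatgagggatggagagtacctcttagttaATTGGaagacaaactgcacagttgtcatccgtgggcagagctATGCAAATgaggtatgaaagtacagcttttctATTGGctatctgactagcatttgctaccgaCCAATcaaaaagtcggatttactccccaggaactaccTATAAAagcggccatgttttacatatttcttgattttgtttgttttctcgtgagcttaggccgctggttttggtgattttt
H2AC17: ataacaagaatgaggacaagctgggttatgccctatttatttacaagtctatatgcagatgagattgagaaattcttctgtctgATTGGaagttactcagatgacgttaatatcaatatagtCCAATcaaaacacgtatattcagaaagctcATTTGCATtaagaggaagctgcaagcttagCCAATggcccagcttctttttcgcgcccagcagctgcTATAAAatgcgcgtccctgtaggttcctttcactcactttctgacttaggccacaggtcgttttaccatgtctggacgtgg
H1-10: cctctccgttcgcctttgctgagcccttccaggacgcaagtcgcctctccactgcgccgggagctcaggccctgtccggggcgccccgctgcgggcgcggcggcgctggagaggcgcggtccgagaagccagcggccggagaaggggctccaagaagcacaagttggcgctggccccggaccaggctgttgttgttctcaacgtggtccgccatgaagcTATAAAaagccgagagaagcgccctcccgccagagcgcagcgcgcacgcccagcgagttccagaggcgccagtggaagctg

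The octamer ends 39 bases before the start in H2BC12, 123 bases before it in H2AC6 and 91 bases before it in H2AC17. All 3 windows also hold CCAAT on both strands, with 6 matches in H2BC12 and 3 each in H2AC6 and H2AC17. H1-10 has the TATA letters alone, beginning 31 bases before the start. Of the 13 tested members with a window, 8 hold the octamer and 5 do not. H2BC5, a tested H2B gene, is one of those without it.

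**Figure D1:**
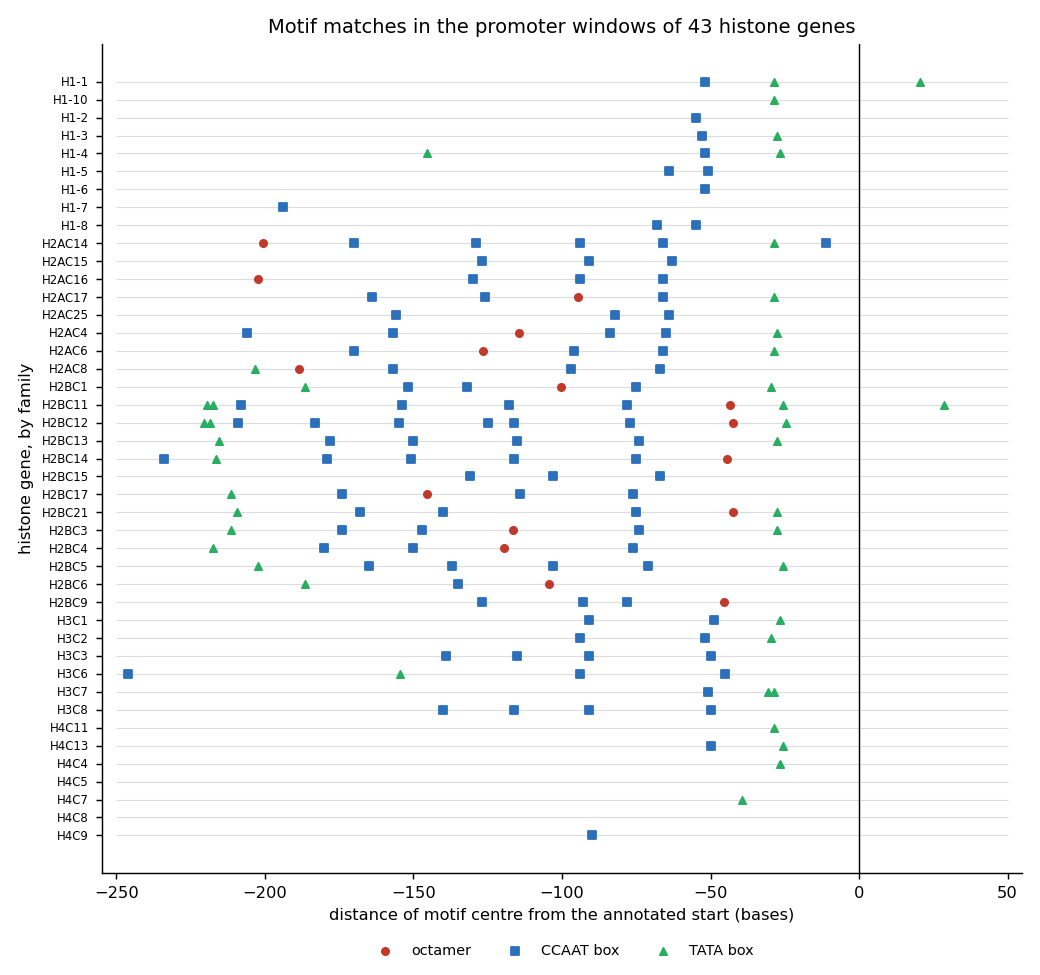
Position of each motif match in the promoter windows of 43 histone genes, in bases from the annotated start on the x axis, with genes grouped by family on the y axis. Octamer matches appear in H2A and H2B genes and in no H1, H3 or H4 gene. TATA box matches gather near 31 bases before the start and, in most H2B genes, also far upstream of it.

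The histone values came from probe sets that differ in affinity, so a value is set against other arrays of the same gene and not against other genes. Intensities are the authors' linear values, and differences are of log2(intensity + 6.1). The filter kept genes at or above the median of all genes' mean log2 values, which corresponds to an intensity of 149. It passed 14 of the 46 members: 2 H1, 4 H2A, 6 H2B, 1 H3 and 1 H4 gene. H2AC8 was the last to pass and H2AC16 the first below. Of the 46, 12 read below their array's median over all probe sets on all 10 arrays, and 14 read above it on all 10. Of the 14 tested members, 4 are read by a probe set with the plain suffix and 10 by sets of the _s_at or _x_at kinds, which the array design marks as matching several transcripts.

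**Figure D2:**
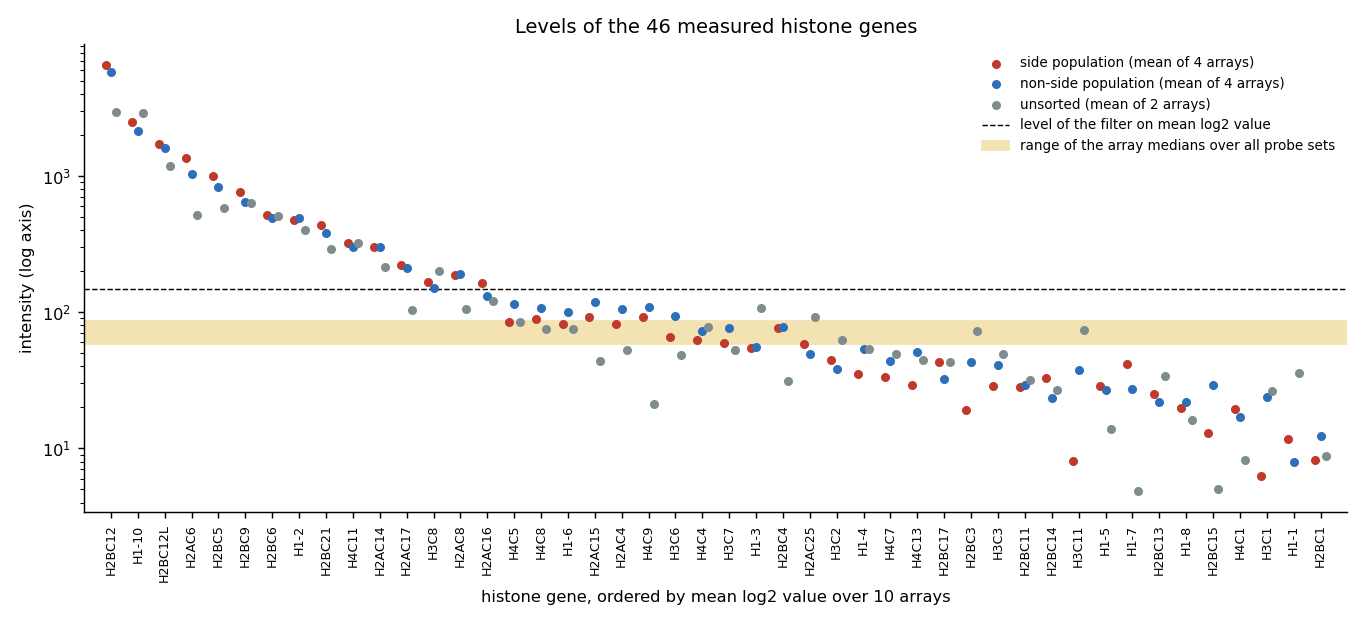
Mean intensity of each of the 46 histone genes (log axis) in side population (4 arrays), non-side population (4) and unsorted cells (2), in order of mean log2 value. The dashed line is the filter at 149, and the shaded band is the range of the array medians, 58.7 to 85.4; 14 genes lie past the filter by their mean log2 value.

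The arrays shared the marks of epithelial cells. Median intensity over all probe sets ran from 58.7 to 85.4 and the trimmed mean was near 500.1 on every array. All 6 epithelial markers, among them the keratins KRT8 and KRT18, read above the array median on all 10 arrays. Defining markers of blood (PTPRC, CD3E), endothelium (VWF, CDH5) and fibroblasts (COL1A2, COL3A1) read below it on all 10. Of the 11 measured markers of those lists, these 6 did so; COL1A1 read above it on all 10 (mean 1463), HBB was below it on 1 array (mean 178), PECAM1 on 2 (mean 121), and CD14 and DCN on 7 each. The summed level of the 4 blood markers was 228.9 to 375.2 in side population, 222.9 to 386.3 in non-side population and 203.7 to 248 in unsorted cells. That of the 3 endothelial markers was 122.6 to 169 in side population, 89 to 250.6 in non-side population and 141.7 to 175.3 in unsorted cells. For the 4 fibroblast markers it was 1196.2 to 2154.5 in side population, 1174.6 to 1676.2 in non-side population and 1364.9 to 2132.2 in unsorted cells. The part of these cells in the histone values was not tested. The summed level of the dye efflux pumps ABCG2 and ABCB1 was 32 to 264.4 in side population, 53.4 to 179.5 in non-side population and 93.8 to 121.7 in unsorted cells, so their ranges overlapped. Actin, read at both ends of its mRNA, had a 3' to 5' ratio of 3.34 in side population replicate a and 0.987 to 1.28 elsewhere. The 18S ribosomal RNA control read 22182.4 to 33704 on 6 sorted arrays. It was low on 4 arrays: 851.2 for replicate d of the side population, 563 for replicate c of the non-side population, and 274.6 and 828.3 for the unsorted cells.

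No tested histone gene was called between side population and non-side population cells. Limma called 0 of the 14 tested members (adjusted p under 0.05) against 0% of the 9888 genes tested, and 0 had an unadjusted p under 0.05 against 4.35% of genes. Members ran from -0.29 for H2AC14 to 0.39 for H2AC6 on the log2 scale, 11 positive and 3 negative, with a median of 0.16. The median of all tested genes was 0.05. No tested member had its 4 side population arrays wholly above or wholly below the 4 non-side population arrays, while 1.01% of genes lay wholly above and 0.576% wholly below. The adjusted p of every tested member was 0.9996. In bulk RNA, a change in the share of cells in S phase and a change in histone RNA per cell cannot be told apart.

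Against the unsorted cells, 3 of the 14 tested members read higher on all 8 sorted arrays, beside 11% of genes, and none was called. The fit called 242 genes, 2.45% of those tested, for side population against unsorted cells, and 362 genes, 3.66%, for non-side population against unsorted cells. It called 0 of the 14 members in either. Both comparisons use the same unsorted arrays and are not independent of each other. An unadjusted p under 0.05 was found for 3 members in the first (17.2% of genes) and for 2 in the second (19.6% of genes). Members had medians of 0.37 and 0.36 on the log2 scale, with 10 positive and 4 negative in each, beside medians of 0.04 and -0.01 for all tested genes. All side population arrays read higher than both unsorted arrays for 5 of 14 members, against 21.4% of genes, and all non-side population arrays did so for 4, against 15.6%. No tested member lay wholly below the unsorted arrays in either comparison, where 15.5% and 16.3% of genes did. The tested members above on all 8 sorted arrays were H2BC12, H2AC6 and H2AC17, 3 of 14, beside 11% of genes. No tested member was below on all 8, beside 9.54% of genes.

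H2BC12, an H2B gene, read 4856.7, 6413.3, 9073.4 and 5628.4 in side population replicates a to d. It read 5238.6, 8261.2, 4300.6 and 5427.0 in non-side population replicates a to d, and 2704.5 and 3190.7 in the unsorted arrays. Side population replicate c was highest, the sorted groups overlapped with each other, and neither overlapped the unsorted arrays. The difference from unsorted cells was 1.10 ± 0.30 (SE) for side population (2.15-fold, limma adjusted p = 0.0651) and 0.94 ± 0.30 for non-side population (1.92-fold, adjusted p = 0.0962). Between side and non-side population it was 0.16 ± 0.24. The 18S control was low on both unsorted arrays and on 2 sorted ones, where H2BC12 read 5628.4 (side population replicate d) and 4300.6 (non-side population replicate c), and its part in these differences was not tested.

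H2AC6, an H2A gene, read 663.3, 1337.1, 2013.6 and 1400.8 in side population replicates a to d. It read 617.7, 1768.0, 827.7 and 922.8 in non-side population replicates a to d, and 470.1 and 569.8 in unsorted cells. Replicate a was lowest in both sorted groups, and both groups lay above the unsorted arrays. The difference from unsorted cells was 1.27 ± 0.43 for side population (adjusted p = 0.128, limma) and 0.88 ± 0.43 for non-side population (adjusted p = 0.274). H2AC6 also had the largest positive value among the 14 members between side and non-side population, 0.39 ± 0.35.

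H2AC17, another H2A gene, read 170.1, 202.2, 270.0 and 240.7 in side population replicates a to d. It read 173.6, 198.8, 231.6 and 237.0 in non-side population replicates a to d, and 62.7 and 144.3 in unsorted cells. The sorted groups nearly coincided, and unsorted replicate a lay far below unsorted replicate b. The difference from unsorted cells was 1.14 ± 0.35 for side population (adjusted p = 0.104, limma) and 1.08 ± 0.35 for non-side population (adjusted p = 0.105), and between the sorted groups 0.06 ± 0.29.

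Further H2B genes and H2AC8 showed smaller differences. H2BC5 read 677.0, 853.8, 1459.5 and 1024.9 in side population replicates a to d, 610.4, 1232.6, 589.1 and 872.7 in non-side population replicates a to d, and 551.9 and 609.5 in unsorted cells. All side population arrays lay above the unsorted arrays, while non-side population replicate c lay between them. The difference between side population and unsorted cells was 0.73 ± 0.35 (adjusted p = 0.300, limma), and a second probe set of H2BC5 gave 0.26. H2BC12L read 1202.6, 1295.0, 2524.0 and 1863.1 in side population replicates a to d, 1353.3, 2279.5, 1152.5 and 1624.1 in non-side population replicates a to d, and 1176.4 and 1201.4 in unsorted cells. Side population replicate a stood barely above unsorted replicate b, and the difference of 0.47 ± 0.33 had an adjusted p of 0.514. H2BC21 differed by 0.52 ± 0.37 and H2AC8 by 0.67 ± 0.46 between side population and unsorted cells, with adjusted p of 0.514 and 0.489. For H2AC8 side population replicates spread from 77.3 to 274.5, non-side population replicates from 144.8 to 224.3 and unsorted replicates from 76.5 to 135.2, so the side population alone overlapped the unsorted arrays.

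Other core histone genes overlapped across all 3 groups. H2BC6 spanned 417.9 to 614.3 in side population, 382.8 to 575.3 in non-side population and 497.0 to 524.8 in unsorted cells. H2BC9 read 518.7, 526.3, 785.1 and 1220.6 in side population replicates a to d, and 530.9 to 759.9 on the other 6 arrays. Its side population replicate d alone stood away from the rest. H2AC14 read 64.2 in replicate a of the side population, whose actin ratio was raised, and 311.0 to 456.7 in side population replicates b to d. Non-side population replicates read 249.0 to 344.4 and unsorted replicates 138.7 and 288.7. That reading lay below the array's median of 70.4. The H2AC14 difference between the sorted groups was -0.29 ± 0.47 with this array and 0.31 without it.

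The tested H3 and H4 genes overlapped between groups. H3C8 read 139.1, 166.2, 205.7 and 157.7 in side population replicates a to d, 190.6, 165.9, 142.2 and 98.1 in non-side population replicates a to d, and 270.6 and 132.1 in unsorted cells. Its values of -0.19 ± 0.36 and -0.37 ± 0.36 for side population and non-side population against unsorted cells rested on the distance between the unsorted arrays: without unsorted replicate a the second value turned to 0.13. H4C11 read 273.9, 259.4, 393.8 and 360.6 in side population replicates a to d, 180.5, 300.5, 273.4 and 438.9 in non-side population replicates a to d, and 289.8 and 350.4 in unsorted cells. The difference between side population and unsorted cells was -0.01 ± 0.34.

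Neither tested linker histone gene was called in any comparison. H1-10, which encodes a linker histone made outside S phase too, read 3511.9, 2344.6, 1963.5 and 2147.8 in side population replicates a to d. It read 2115.0, 1356.7, 2951.5 and 2154.4 in non-side population replicates a to d, and 3271.0 and 2485.4 in unsorted cells. Replicate a was highest in side population cells and replicate c highest in non-side population cells. The differences from unsorted cells were -0.23 ± 0.32 for side population (adjusted p = 0.779, limma) and -0.46 ± 0.32 for non-side population (adjusted p = 0.455). H1-2 read 315.5, 406.6, 669.4 and 491.4 in side population replicates a to d, 384.0, 452.6, 442.8 and 689.4 in non-side population replicates a to d, and 426.0 and 369.5 in unsorted cells. Its groups overlapped, and the difference between side and non-side population was -0.08 ± 0.27.

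**Figure D3:**
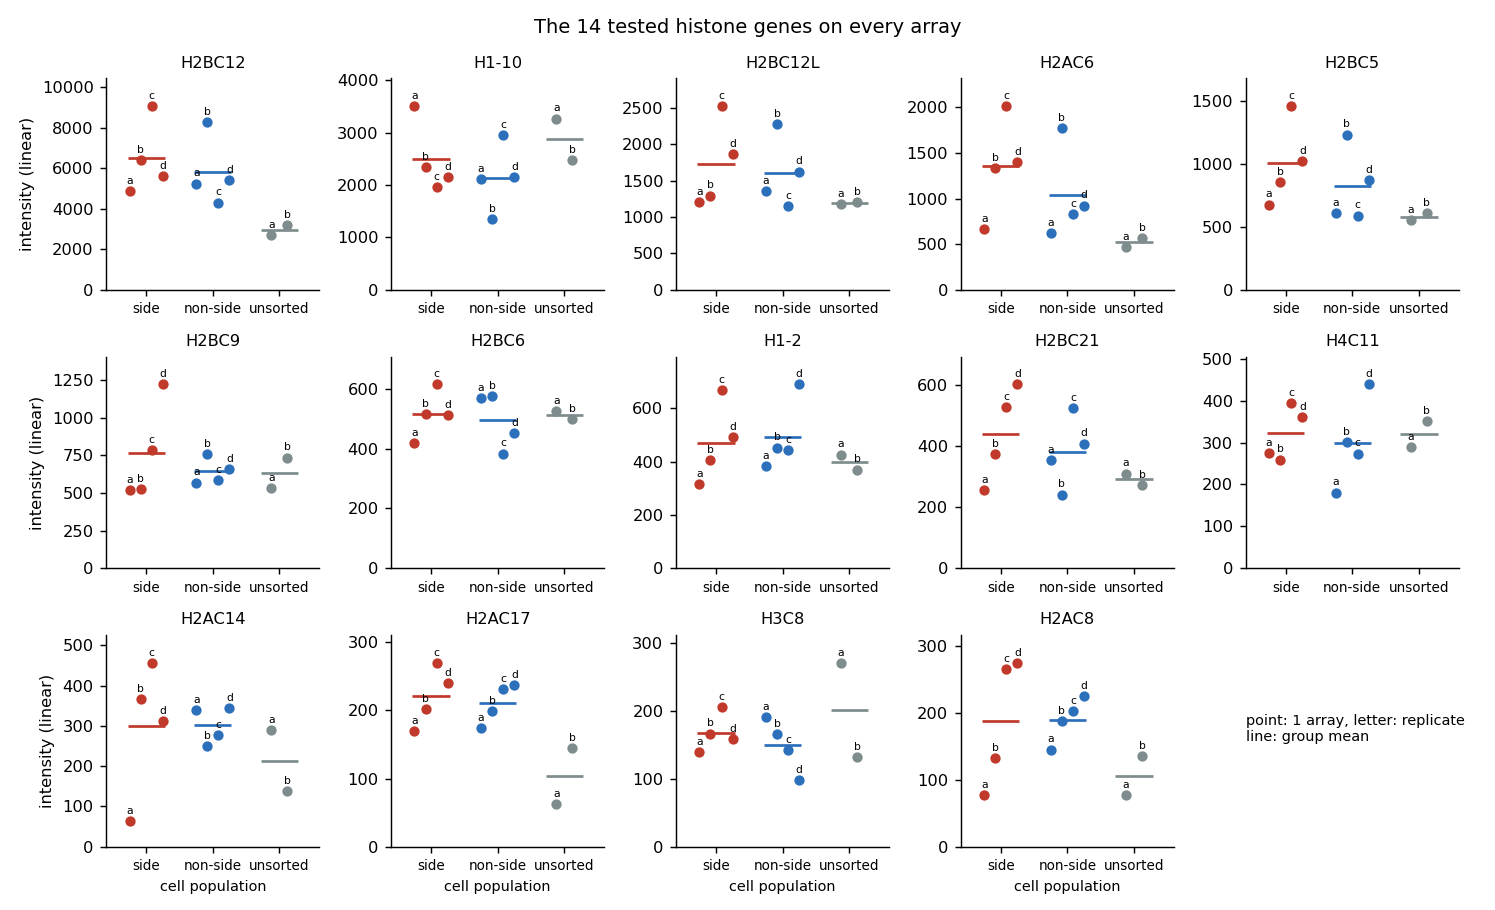
Intensity (linear axes from 0) of the 14 tested histone genes on every array, with side population, non-side population and unsorted cells from left to right, letters for replicates and lines for group means. For H2BC12, H2AC6 and H2AC17 all 8 sorted arrays stand above both unsorted arrays, and the sorted groups overlap for every gene.

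**Figure D4:**
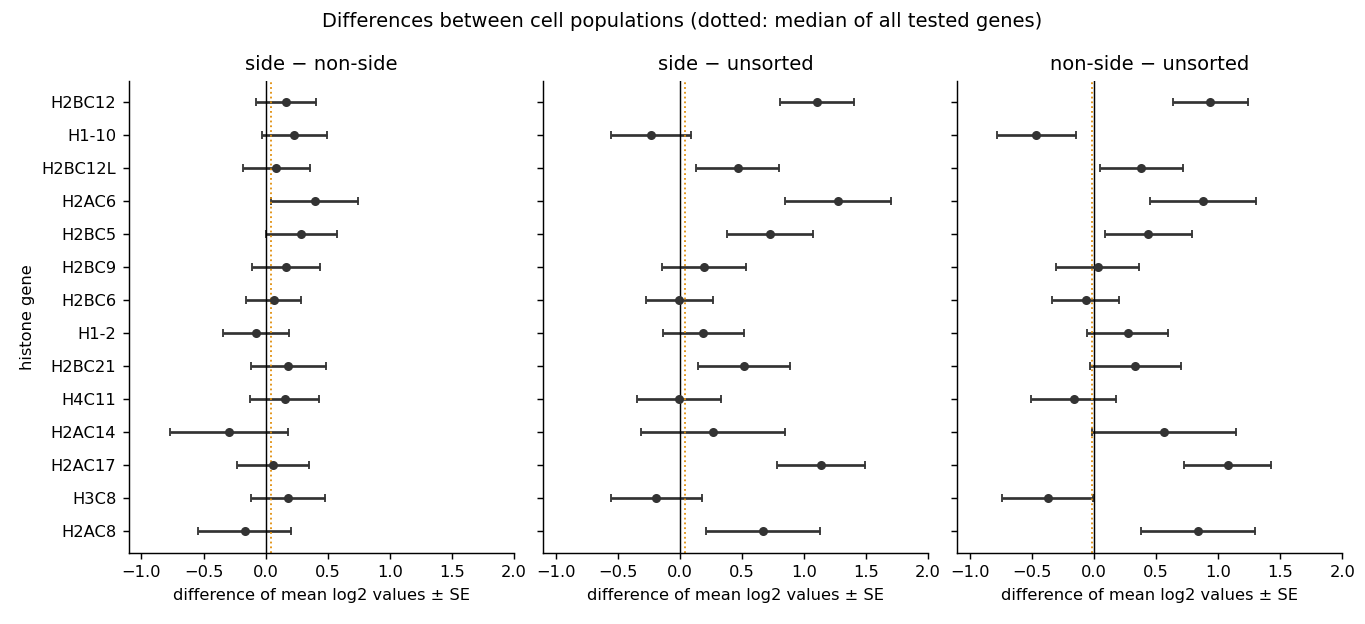
Difference of mean log2 values ± SE for the 14 tested histone genes in the 3 comparisons, with side population minus non-side population at the left; the dotted line is the median of all tested genes. Members stay within 0.39 of 0 between the sorted groups, and H2BC12, H2AC6 and H2AC17 lie near 1 against unsorted cells.

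Among the 32 members below the filter, most read near or below the array medians. H4C5 averaged 85.3 ± 19.4 in side population, 115 ± 11.8 in non-side population (SD, n = 4 each) and 84.5 ± 36.5 in unsorted cells (n = 2). H4C8 averaged 89.0 ± 36.0 in side population, 108 ± 57.5 in non-side population and 75.8 ± 15.5 in unsorted cells. H1-6, the testis linker histone H1T, averaged 81.4 ± 7.90 in side population, 99.7 ± 4.33 in non-side population and 75.3 ± 46.8 in unsorted cells. The H3 genes H3C6 and H3C7 averaged 66.2 ± 19.8 and 59.7 ± 14.1 in side population cells, 93.2 ± 13.7 and 76.2 ± 24.5 in non-side population, and 48.3 ± 10.7 and 53.2 ± 1.34 in unsorted cells. All 5 had their highest mean in non-side population and their lowest in unsorted cells. These differences passed no test and lay at levels near the array medians, where readings carry little signal over background. Over all 46 members the median differences were 0.05, 0.16 and 0.28 for side against non-side population, side population against unsorted and non-side population against unsorted cells.

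With no filter, 1 of the 46 members was called. The H4 gene H4C9, picked out after its values were seen, read 121.8, 100.6, 58.6 and 90.4 in side population replicates a to d, 132.2, 56.0, 104.4 and 145.0 in non-side population replicates a to d, and 19.4 and 23.1 in unsorted cells. All 8 sorted arrays stood above both unsorted arrays, which read far under their own array medians. Its difference between non-side population and unsorted cells was 2.00 ± 0.47 (limma adjusted p = 0.0488 over all 19775 genes, of which 1.59% were called). For side population against unsorted cells it was 1.82 ± 0.47 (adjusted p = 0.0865, with 0.819% of genes called). The H3 gene H3C11, named for the same reason, had low readings in side population cells, 2.5 to 13.0 against 54.1 and 94.9 in unsorted cells, a difference of -2.52 (adjusted p = 0.0691).

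Over all 46 members, a few below the filter had groups that did not overlap. Side population arrays lay wholly below non-side population arrays for 2 members (1.34% of all 19775 genes) and wholly above for 0 (0.941%). They were the linker histone gene H1-6, at 74.7 to 92.8 in side population and 94.5 to 103.9 in non-side population cells, and the H3 gene H3C1, at 1.7 to 13.6 in side population and 18.2 to 28.8 in non-side population cells. H3C1 read below the array median on all 10 arrays. Against unsorted cells, side population arrays lay wholly above for 10 members (16.6% of genes) and wholly below for 3 (11.6%), H2AC25, H2BC3 and H3C11. Non-side population arrays lay wholly above for 8 (15.3%) and wholly below for 1 (11.3%), H2AC25. On all 8 sorted arrays, 5 members were above both unsorted arrays (8.9%) and 1 below (6.23%). The H2A gene H2AC25 read 31.2 to 82.9 in side population, 9.1 to 69.1 in non-side population and 90.7 and 93.7 in unsorted cells. H3C1, H2AC25 and H2BC3 were picked out after their values were seen, and with no filter limma called none of these 5 genes in any comparison.

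Single arrays stood high or low across many members. Side population replicate c gave the highest value of all 10 arrays for 7 of the 14 tested members and replicate d for 3. Unsorted replicate a gave the lowest for 5 and side population replicate a for 3. The median log2 value over the tested members was 8.53, 8.86, 9.34 and 9.13 in side population replicates a to d, 8.89, 9.01, 8.93 and 9.11 in non-side population replicates a to d, and 8.83 and 8.76 in unsorted cells. The side population array medians had an SD of 0.35, against 0.10 for non-side population. The list of 27 tested S phase genes holds replication enzymes and licensing factors, and also cyclins, CDK2, E2F1 and SLBP. Their median log2 value was 11.61, 11.72, 11.09 and 11.34 in side population replicates a to d. It was 11.53, 11.41, 11.37 and 11.28 in non-side population replicates, and 11.48 and 11.47 in unsorted cells. Side population replicate c was thus highest for the histone members and lowest for the S phase genes.

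Side population and non-side population replicates differed by letter, a split that earlier results of these data had shown over other genes. Within replicates a and b, 3 of 14 members were positive and 11 negative, with a median of -0.22 beside 0.10 for all tested genes. This pair includes side population replicate a, which had the raised actin ratio of 3.34 and the lowest median of the tested members, 8.53. The part of that array in the split was not tested. Within replicates c and d, 13 were positive and 1 negative, with a median of 0.38 beside 0.01. All 6 tested H2B genes were positive in replicates c and d, and 1 of 6 in replicates a and b. Of these 6 genes, 4 are read by _x_at sets and 1 by an _s_at set, so their values may not be independent. The fit called 0 members in either letter pair, against 9.2% of genes within replicates a and b and 0% within c and d. The difference between the letter pairs was called for 0 members and 0% of genes, although 26.8% of genes and 3 of 14 members had an unadjusted p under 0.05. The smallest was for H2BC12L, -0.49 ± 0.28 within a and b and 0.66 ± 0.28 within c and d, a difference of -1.15 ± 0.39 (adjusted p = 0.119, limma). H1-10 ran opposite to it, 0.76 ± 0.28 within a and b and -0.30 ± 0.28 within c and d. The source labels of side population replicates a and b name no line, so cell line and replicate letter cannot be told apart from these labels. With the letter pairs fitted as separate sorted groups and then averaged, the fit for side population over unsorted cells called 3 members higher (H2AC17, H2AC6 and H2BC12) against 13.6% of genes, and that for non-side population called 2 (H2AC17 and H2BC12) against 15.9%.

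**Figure D5:**
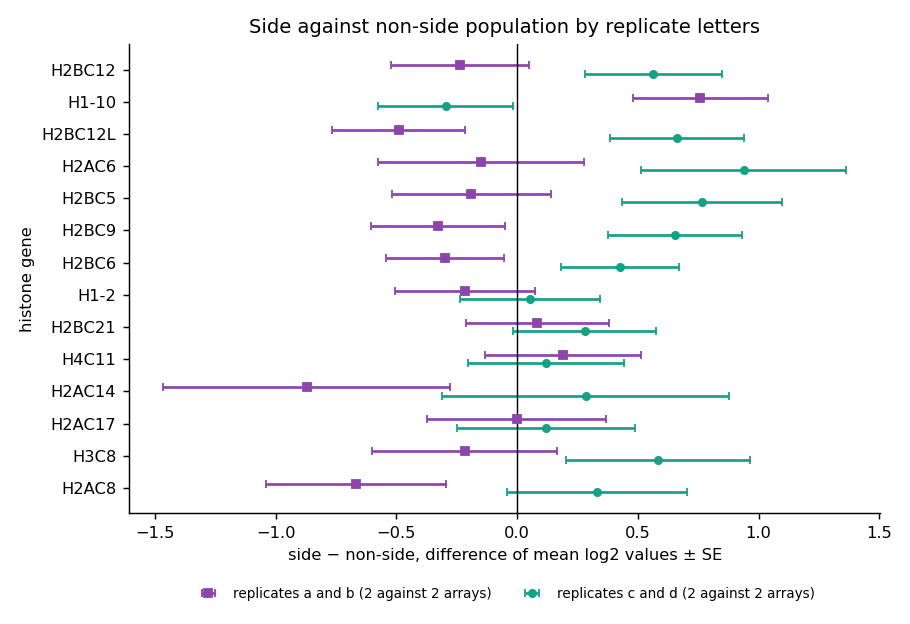
Side minus non-side population difference of mean log2 values ± SE for the 14 tested histone genes within replicates a and b (2 against 2 arrays, squares) and within replicates c and d (circles). Of the 14 members, 12 point in opposite directions in the 2 pairs, H2BC12L and H1-10 among them, and 13 are positive within c and d.

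Probe sets assigned jointly to several histone genes were taken for no member, and they did not follow the members in every family. There were 20 of them, and 14 passed the filter when every annotated probe set was tested on its own. A plain probe set assigned jointly to 14 H4 genes read 1575.5, 1307.1, 4169.6 and 571.6 in side population replicates a to d. It read 1657.0, 890.1, 788.3 and 704.5 in non-side population replicates a to d, and 8807.4 and 4329.7 in unsorted cells. Every sorted array lay below both unsorted arrays, and side population replicate c came close to unsorted replicate b. Non-side population was lower than unsorted cells by -2.69 ± 0.60 on the log2 scale (adjusted p = 0.0321, limma over 21449 probe sets, of which 3.64% were called). Side population gave -2.05 ± 0.60 (adjusted p = 0.0903, with 2.15% of probe sets called), and side against non-side population 0.64 ± 0.49 (0% called). The non-side population call was lost without non-side population replicate d (adjusted p = 0.0742), without unsorted replicate a (0.378) or without unsorted replicate b (0.115). A second probe set of the same 14 H4 genes, of the _x_at kind, gave -0.49 ± 0.33 for side population and -0.43 ± 0.33 for non-side population against unsorted cells, with adjusted p of 0.427 and 0.481. Other sets of these 14 genes, below the filter, gave 0.86, -0.56 and 0.49 for non-side population. Members are among the 14 genes, such as H4C11 and H4C9. Their own probe sets gave -0.16 for H4C11 and 2.00 for H4C9 in that comparison, so H4C9 ran opposite to the called joint set.

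The joint H2B probe sets differed among themselves. The 3 assigned to the same 5 H2B genes gave 0.01, 0.05 and 0.25 for side population and 0.05, 0.04 and 0.47 for non-side population against unsorted cells. The 2 assigned to another pair of H2B genes gave higher values. The plain one read 320.8, 323.5, 826.9 and 1310.2 in side population replicates a to d, 437.9, 462.6, 1308.6 and 1594.6 in non-side population replicates a to d, and 152.3 and 144.8 in unsorted cells. Replicates c and d were the higher ones in both sorted groups, and every sorted array stood above the unsorted arrays. The difference from unsorted cells was 1.92 ± 0.62 for side population (adjusted p = 0.116, limma) and 2.40 ± 0.62 for non-side population (adjusted p = 0.0527). The other, of the _s_at kind, gave 1.25 ± 0.59 for side population (adjusted p = 0.259) and 1.90 ± 0.59 for non-side population (adjusted p = 0.0904). A plain set assigned to 6 H2A genes, H2AC17 among them, gave 1.62 ± 0.44 for side population (adjusted p = 0.0742) and 0.98 ± 0.44 for non-side population (adjusted p = 0.226). A second set of the same 6 genes, of the _x_at kind, gave 0.002 ± 0.35 (adjusted p = 0.999) and 0.18 ± 0.35 (adjusted p = 0.815). None of these sets was called. Where a member had several probe sets of its own, which was so for 7 genes, another set gave the opposite sign in 2 genes for side against non-side population, 2 for side population against unsorted and 1 for non-side population against unsorted cells.

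Genes that make, process and deliver these histones were called at 0 or 1 per list and comparison, beside the 0%, 2.45% and 3.66% of all tested genes called in the 3 comparisons. Of 27 tested S phase genes, 0 were called in any comparison, with medians of 0.05 for side against non-side population, -0.02 for side population against unsorted and -0.01 for non-side population against unsorted cells. SLBP, the stem-loop binding protein, differed by -0.19 ± 0.28, -0.26 ± 0.34 and -0.08 ± 0.34 in these comparisons. NPAT, which drives histone transcription, differed by 0.40 ± 0.20, -0.002 ± 0.25 and -0.40 ± 0.25. A second probe set of NPAT gave -2.19 for non-side population against unsorted cells, with an adjusted p of 0.0376 when each probe set was tested on its own. Among 26 tested genes of histone mRNA transcription and 3' end processing, 1 was called lower against unsorted cells in each comparison, with medians of -0.13 for side population and -0.23 for non-side population. It was CDK9, the kinase of transcription elongation.

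CDK9 read 346.5, 382.1, 278.8 and 459.4 in side population replicates a to d, 470.7, 342.5, 408.6 and 443.2 in non-side population replicates a to d, and 1172.7 and 988.3 in unsorted cells. It was lower by -1.56 ± 0.27 on the log2 scale in side population (limma adjusted p = 0.0103) and by -1.37 ± 0.27 in non-side population (adjusted p = 0.0150), and both calls were lost when either unsorted array was left out. A second tested probe set of CDK9 gave 0.06 and 0.77 in the same comparisons. Among 24 tested histone chaperones and assembly factors, HIRA, the chaperone of the replacement histone H3.3, passed the test with a lower value in side population cells than in unsorted cells, and ATRX, which loads the same histone at repeats, with a higher one in non-side population than in unsorted cells. The list had medians of -0.04 for side against non-side population, -0.03 for side population against unsorted and -0.12 for non-side population against unsorted cells. HIRA differed by -1.62 ± 0.34 (adjusted p = 0.0259), a call lost without side population replicate a or b or either unsorted array, and a second probe set, below the filter, gave 0.64. ATRX differed by 1.12 ± 0.29 (adjusted p = 0.0456), a call lost in 7 of the 10 fits that left out an array, and other probe sets of ATRX gave 0.06 and -2.46. Of 8 tested replication-independent variants, a list that holds H1-10 as well, 0 were called. H3-3A, which encodes H3.3, read 1358.5, 1124.7, 535.4 and 573.3 in side population replicates a to d, 936.5, 1027.5, 287.4 and 437.1 in non-side population replicates a to d, and 256.7 and 166.6 in unsorted cells. All sorted arrays stood above both unsorted arrays, with differences of 1.97 ± 0.50 (adjusted p = 0.0530) for side population and 1.49 ± 0.50 (adjusted p = 0.115) for non-side population.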

How the data were processed

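Total RNA was measured on 10 single-channel arrays. The deposited intensity values are linear and, by the trimmed mean of every array, already scaled by the authors; per the submitters' processing notes GCOS 1.4 was used, and its settings and the labelling primer are not stated there. The deposited intensities plus 6.1 (their 10th percentile) were put on the log2 scale, which understates changes of low values. Of 54675 probe sets, 41097 had 1 symbol, 1801 several and 11777 none in the platform annotation. Genes under the median of mean log2 values were left out, leaving 9888.

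Under R 4.3.3, limma 3.58.1 compared the groups by a linear model with trended empirical Bayes variances over all 10 arrays without covariates, with p-values adjusted by Benjamini-Hochberg over all tested genes and called under 0.05. The scripts were tested on simulated data. Members, context lists and alternatives were chosen with earlier results of these data known. Named were called members, the 3 of highest mean log2 value per family and the member of smallest p per family and comparison, with others in clauses. Alternatives covered constant, filter, scaling, probe set choice, variance model, arrays and replicate letters. The number of arrays, above all the 2 unsorted ones, limits the precision.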

Additional observations from a re-analysis of the deposited data

How the results depend on the processing

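The comparison of side with non-side population kept 0 called members under every alternative run. Against unsorted cells the share of all genes called moved between fits, so a count of called members alone shows no excess. It was 2.45% for side population and 3.66% for non-side population in the main fit. With the letter pairs as separate groups it was 13.6% and 15.9%. The share is not given here for each alternative. For side population against unsorted cells, where 0 members were called, 1 was called after quantile normalization, with only the 2 compared groups, with the replicate block and with sorted replicates a and b alone (H2BC12 in each). With the letter pairs as separate groups 3 were called, and with sorted replicates c and d alone 4, H2AC8 being the fourth. Leaving out single arrays gave 0 to 1, with H2BC12 called without non-side population replicate b or c. For non-side population against unsorted cells, 1 was called with no filter (H4C9), with replicates a and b alone (H2BC12) and with c and d alone (H2AC17), 2 with the letter pairs as separate groups, and 0 to 1 on leaving out arrays (H2BC12 without non-side population replicate c). H2BC12 was called in 8 of 24 alternatives for side population (adjusted p from 0.0122 to 0.584) and in 3 of 24 for non-side population against unsorted cells.

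The members' median for side against non-side population was -0.0812 with plain probe sets alone and -0.22 within replicates a and b, where H2AC6 gave -0.15 and H2BC5 -0.19. For side population against unsorted cells it was 0.67 with plain probe sets, 0.88 with AGS-labelled arrays alone and also with replicates c and d alone, 0.0014 with replicates a and b alone, and 0.15 to 0.68 on leaving out arrays, highest without side population replicate a. For non-side population against unsorted cells it was 0.84 with plain probe sets. H3C8 ran from -0.87 to 0.13 there on leaving out arrays. The causes were not tested.

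The titles give both sorted populations the same replicate group names, but do not say that a shared name means a shared culture or day. The unsorted arrays have group names of their own. Deviations of same-letter sorted arrays correlated at 0.21, 0.50, -0.11 and 0.36 for a to d, and 5 of the 8 sorted arrays correlated best with their own letter. The main fit did not pair the letters. The replicate block gave medians of 0.0924 for side population and 0.12 for non-side population against unsorted cells. It treats unsorted replicates a and b as sharing letters with the sorted ones, which the titles do not state. The tests of joint probe sets and the left-out arrays for CDK9, HIRA and ATRX were chosen after seeing the data. A fit without 1 unsorted array assumes that the other varies like the remaining groups. Of the values of named genes and the joint H4 probe set under alternatives, 20 of 712 passed the threshold anew and 3, all of the joint probe set, no longer passed it. The sign was opposite to the reported one in 37 values of 17 of the 32 differences, 0 of them called. Intensities near or below the array medians carry little signal over background, which limits the 32 members below the filter.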
